A study of Mus musculus with 9 samples.

Results

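miR-132 and miR-212 (mmu-miR-132 and mmu-miR-212 on the array) are a pair of microRNAs (miRNAs) made from neighbouring hairpins of a single locus, and their levels were followed in mouse primary visual cortex after 2 kinds of visual deprivation. The pair was taken by name from the probe annotation of the arrays, which lists 611 mouse miRNA names, and both names were on all 9 arrays and among the 318 miRNAs that were bright enough to test. All mice were C57BL6, with no transgene or mutation named in the labels, and all were killed at postnatal day 28. The 3 control samples came from mice raised under normal light and dark conditions. The 3 dark-reared samples came from mice that spent their whole life, from birth, in complete darkness. The 3 monocularly deprived samples came from normally raised mice that had the lids of 1 eye sutured from day 24, and only the visual cortex on the side opposite the closed eye was taken. The labels do not say whether a sample was 1 mouse or a pool, so the spread that p-values measure is that between the samples as deposited, and it may be technical.

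miRNAs are short RNAs that guide Argonaute proteins to partly complementary sites in messenger RNAs, mainly through the seed, the bases near their 5′ end, and so lower the output of their targets. The miR-132 and miR-212 transcript is a textbook target of the activity-regulated transcription factor CREB in neurons, and the mature miRNAs act on regulators of dendritic spines. In visual cortex the locus is known for its induction by light and for its part in ocular dominance plasticity, the shift of cortical responses towards the open eye after 1 eye is closed. Neuronal activity itself was not measured here.

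The mature sequences, from RefSeq, show what the pair shares and where an array probe can tell them apart. The seed (bases 2 to 8) is in capitals, and both lie on the plus strand of GRCm38.p6, miR-132 at chr11:75173723-75173744 and miR-212 at chr11:75173443-75173464.
miR-132: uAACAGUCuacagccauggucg
miR-212: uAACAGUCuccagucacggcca
Of the 1679 mature mouse miRNAs in the RefSeq table, these 2 alone carry this seed. They share 17 of 22 bases (77.27%), including the first 9. The differences, counted from the 5′ end with the miR-132 base first, are A10C, C14U, U17C, U20C and G22A.

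The hairpins show how close together the pair is encoded, with the mature miRNA in capitals. Mir212 (chr11:75173388-75173478, 91 bases) lies before Mir132 (chr11:75173682-75173747, 66 bases), with 203 bases between them. No other gene of the RefSeq table overlaps the stretch from the start of Mir212 to the end of Mir132, and the neighbouring genes are Hic1 and Ovca2.
Mir212: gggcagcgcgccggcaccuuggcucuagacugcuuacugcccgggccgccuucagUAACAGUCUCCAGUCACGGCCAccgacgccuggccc
Mir132: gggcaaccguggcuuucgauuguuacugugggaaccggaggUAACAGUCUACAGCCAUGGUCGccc
The array named 2 products of the locus, miR-132 and miR-212, whose probes match these 3′-arm miRNAs, and the opposite arms were not analysed here.

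Each miRNA was read by 2 DNA probes of different length, shown as the deposited files give them because the results below turn on which bases and how many of them a probe pairs with. Capitals mark the bases that lie opposite the 5 positions where the pair differs.
miR-132, 16 bases: CgAccAtgGctgTaga
miR-132, 15 bases: CgAccAtgGctgTag
miR-212, 14 bases: TgGccGtgActgGa
miR-212, 13 bases: TgGccGtgActgG
All 4 probes pair with the 3′ end of their miRNA through base 22. They reach back to base 7 and base 8 of miR-132 and to base 9 and base 10 of miR-212. Each probe covers all 5 differing positions and so has 5 mismatches to the other member. The miR-212 probes are the shorter and richer in G and C (64.29% and 69.23%, against 56.25% and 60% for miR-132). Each probe was printed in 10 spots. All 180 spots of each miRNA over the 9 arrays were well above background and 0 were saturated, and 8 of each 180 were left out because the scanner software marked them as outliers. The spots of a probe varied within an array by a median of 3.40% for miR-132 and 3.59% for miR-212 (coefficient of variation, 8.81% at most).

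Control and dark-reared arrays shared 1 slide and 1 scan, while the monocularly deprived arrays were alone on a second slide and scan. On the shared slide all control arrays lay in row 1 and all dark-reared arrays in row 2, so row and group cannot be told apart there. In either comparison with monocular deprivation, an effect of the slide and an effect of the group cannot be told apart. Between 297 and 359 mouse miRNAs were detected per array, and arrays of the same group had correlations of 0.972 to 0.999 across miRNAs. All 8 neuronal marker miRNAs were bright enough to test, and the liver marker miR-122 was not. To give a level, the mean processed intensity of a miRNA was divided by the array's own 75th percentile and log2 was taken, so that a difference of 1 is a factor of 2 in signal. Levels are given as mean ± SD with n = 3 arrays. Signals of different probes are not on a common scale of abundance, so levels are compared between groups and not between the members.

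miR-132 was highest in control cortex, intermediate after monocular deprivation and lowest after dark rearing. Its log2 level was 2.33, 2.41 and 2.25 on the 3 control arrays. It was 1.05, 1.28 and 1.15 on the dark-reared arrays. On the monocularly deprived arrays it was 1.75, 2.21 and 1.49. No range overlapped another, although the highest monocularly deprived array (2.21) lay close to the lowest control array (2.25), and the monocularly deprived arrays spread most widely. The group means were 2.33 ± 0.08 for control, 1.16 ± 0.12 for dark-reared and 1.82 ± 0.37 for monocularly deprived cortex.

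miR-212 followed another order: control was again highest, but monocular deprivation and not dark rearing gave the lowest level. Its log2 level was -0.11, 0.02 and -0.17 on the control arrays. It was -0.54, -0.37 and -0.71 on the dark-reared arrays. The monocularly deprived arrays read -1.33, -1.26 and -1.45. The 3 ranges were again separate, and here the monocularly deprived arrays lay close together. The group means were -0.09 ± 0.10, -0.54 ± 0.17 and -1.34 ± 0.10 in that order. Before scaling, the mean processed intensity over the 9 arrays ran from 977 to 5122 units for miR-132 and from 221 to 947 units for miR-212.

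**Figure D1:**
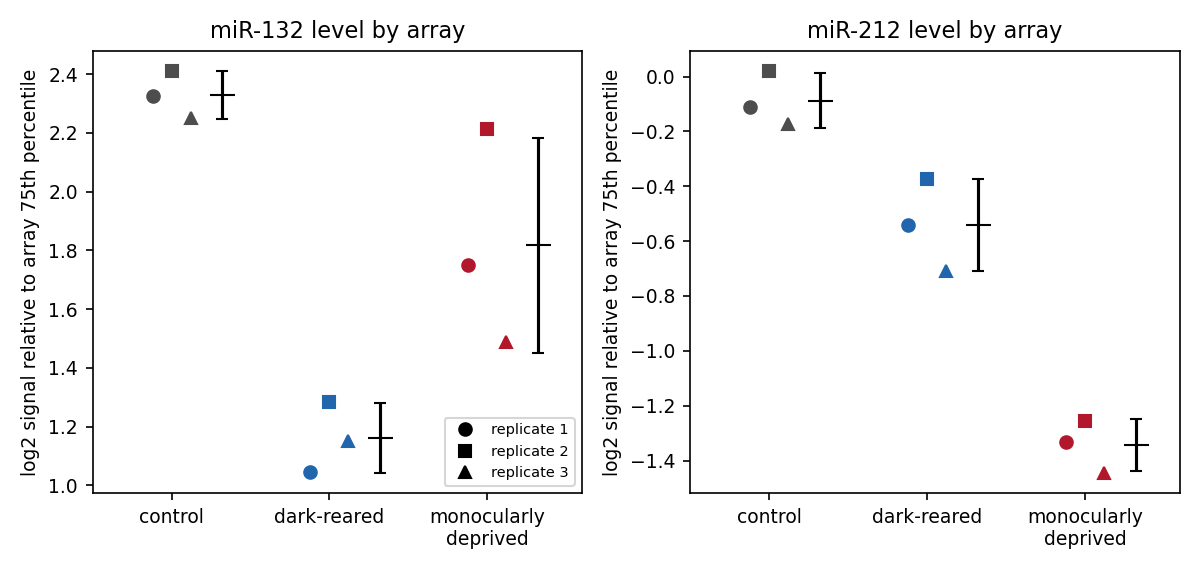
Level of miR-132 (left) and miR-212 (right), as log2 signal over the array's own 75th percentile, with 1 point per array (the shape gives the replicate number) and the mean ± SD of the 3 arrays of each group beside them. Dark-reared arrays are lowest for miR-132 (1.05 to 1.28) and monocularly deprived arrays are lowest for miR-212 (-1.45 to -1.26). The vertical axes of the panels differ and do not start at 0.

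The comparison of dark-reared with control cortex addresses what lifelong absence of light does to the pair. miR-132 was 2.25-fold lower after dark rearing (log2 change -1.17, SE 0.17, 95% interval -1.56 to -0.78, limma adjusted p = 0.0365). It fell on all 3 dark-reared arrays relative to all 3 controls. miR-212 was 1.37-fold lower on average (log2 change -0.45, SE 0.11, 95% interval -0.70 to -0.21), and although its groups did not overlap it did not pass the test (adjusted p = 0.174). Thus 1 of the 2 members was called in a comparison in which 0.629% of the 318 tested miRNAs were called, namely miR-132 as the single lower one (0.314%) and miR-200b, of an epithelial family, as the single higher one (0.314%). The miR-200b call (log2 change 0.76, adjusted p = 0.0450) was lost under 18 of 24 alternatives, with a value of 0.11 under normexp. Groups that did not overlap, with dark-reared lower, were found for both members and for 7.86% of the tested miRNAs.

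Ranked over the 318 tested miRNAs, miR-132 had the smallest p-value of the dark-rearing comparison and miR-212 the 5th. By size of change, miR-132 had the 2nd lowest value and miR-212 the 9th lowest, while the median change of all tested miRNAs was 0.05. Without adjustment, at p under 0.05, 28 miRNAs (8.81%) would pass, both members among them (unadjusted p = 0.000115 and 0.00274 in limma). The call of miR-132 depended on which array was left out: omission of any single control or dark-reared array, or of monocularly deprived replicate 1, kept the change between -1.23 and -1.11 but raised the adjusted p to 0.0600 to 0.137. It held without monocularly deprived replicate 2 (adjusted p = 0.00299) or replicate 3 (adjusted p = 0.0158), which enter only through the shared estimate of spread. With the replicate number as a block, 1 miRNA in place of 2 was called between dark-reared and control cortex, and this was miR-132 (adjusted p = 0.0271).

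The comparison of monocularly deprived with control cortex addresses what 4 days of closure of the opposite eye does to the pair in an otherwise normally raised animal. Both members fell. miR-212 was 2.39-fold lower (log2 change -1.26, SE 0.11, 95% interval -1.50 to -1.01, limma adjusted p = 4.39e-05). miR-132 was 1.43-fold lower (log2 change -0.51, SE 0.17, 95% interval -0.90 to -0.12, adjusted p = 0.0497), which by p-value is the last of the 105 miRNAs called.

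This comparison had a far larger background than the first: 33% of the tested miRNAs were called, 17.3% as lower and 15.7% as higher, and groups did not overlap with monocularly deprived lower for 24.2%. Both of the 2 members were called lower, which set them apart from fewer miRNAs than a call after dark rearing did. miR-212 ranked 15th by p-value and had the 32nd lowest change. miR-132 had the 60th lowest change, and the median change of all tested miRNAs was 0.08. The miR-132 call was lost when any array other than monocularly deprived replicate 2 was left out (adjusted p = 0.0617 to 0.137). Without monocularly deprived replicate 2, the array with the highest miR-132 level of its group, the change was -0.71 (adjusted p = 0.00406). When the arrays were scaled on all miRNA probes, the miR-132 change was 0.040 while the median of all tested miRNAs moved to 0.62, which leaves miR-132 at -0.58 relative to that median. Relative to the median, miR-132 stood at 0.02 under normexp background correction, where the median of all tested miRNAs was -0.42.

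**Figure D2:**
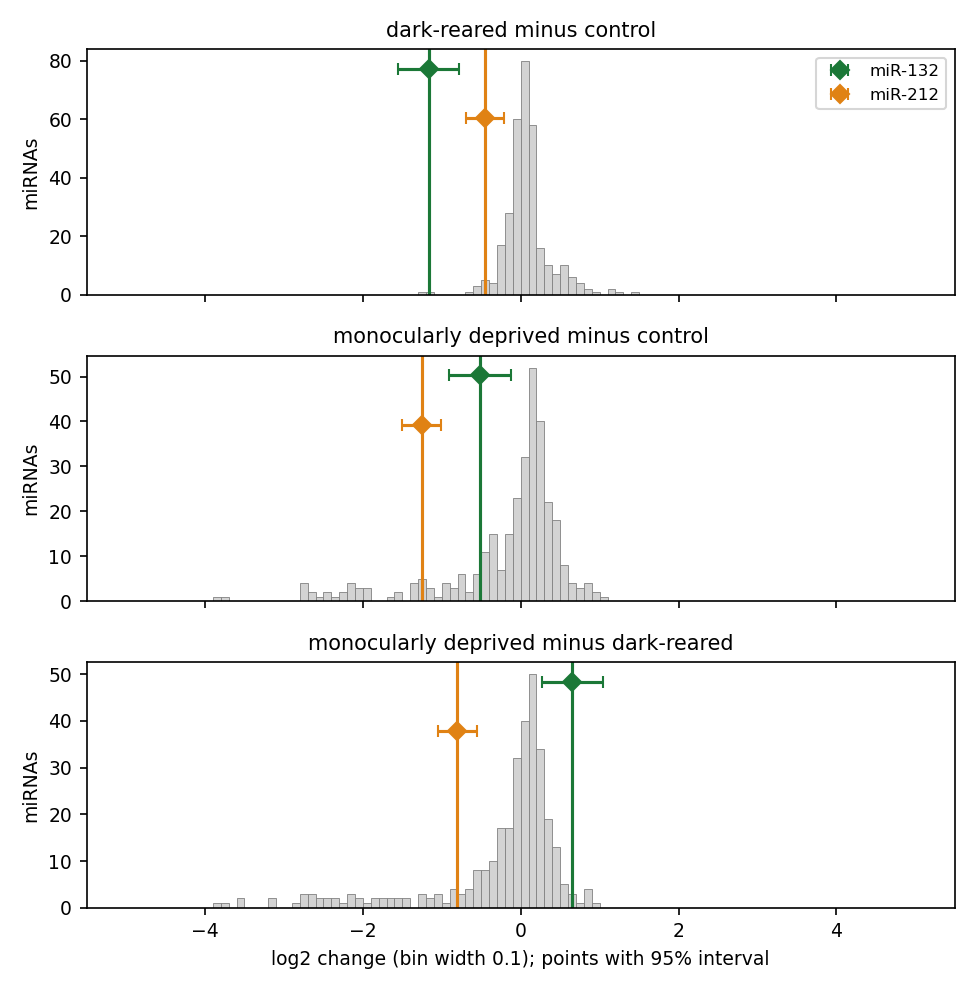
Histograms of the log2 change of the 318 tested miRNAs in each of the 3 comparisons (bin width 0.1), with the change of miR-132 and miR-212 as vertical lines and their 95% intervals as bars placed at an arbitrary height. After dark rearing miR-132 (-1.17) sits at the far lower edge of a narrow distribution, whereas the wider distributions with monocular deprivation hold many changes below that of miR-212 (-1.26 and -0.80).

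Set directly against each other, the deprived groups differed in opposite directions for the 2 members. miR-132 was 1.58-fold higher in monocularly deprived than in dark-reared cortex (log2 change 0.66, SE 0.17, 95% interval 0.27 to 1.05, limma adjusted p = 0.0249). miR-212 was 1.75-fold lower (log2 change -0.80, SE 0.11, 95% interval -1.05 to -0.56, adjusted p = 0.000879). Of the tested miRNAs, 28.6% were called in this comparison, 9.75% as higher and 18.9% as lower. Groups did not overlap with monocularly deprived higher for 20.4% and with monocularly deprived lower for 26.1%. miR-132 had the 311th lowest change of 318, which places it among the 8 highest, and miR-212 had the 49th lowest. The miR-132 call was lost without dark-reared replicate 1 (adjusted p = 0.0781) and without monocularly deprived replicate 1 (adjusted p = 0.0609). Without monocularly deprived replicate 2 the change was 0.46 (adjusted p = 0.0232). The miR-212 call was lost with no scaling (-0.81), normexp (-0.72) and scaling on all probes (-0.12, adjusted p = 0.547), under which the median of all tested miRNAs was 0.70.

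The difference between the 2 members within an array was then compared, because dividing 1 member by the other removes any scaling of the array as a whole. The log2 level of miR-132 minus that of miR-212 was 2.44, 2.39 and 2.42 on the control arrays. It was 1.59, 1.66 and 1.86 on the dark-reared arrays. It was 3.08, 3.47 and 2.93 on the monocularly deprived arrays. The control arrays lay closest together, every dark-reared array lay below them and every monocularly deprived array lay above them. The differences averaged 2.42 ± 0.02, 1.70 ± 0.14 and 3.16 ± 0.28. They carry the unequal response of the probes and are no ratio of molecules, so only their change between groups is read.

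Over all 1680 arrangements of the 9 arrays into 3 groups of 3, an exact permutation test of the F ratio gave p = 0.00357, the smallest value that the test can give. The arrangements ignore replicate numbers and slides. Relative to control, the difference was 0.72 lower after dark rearing (-0.72, SE 0.08) and 0.74 higher after monocular deprivation (SE 0.16). The deprivations differed by 1.46 (SE 0.18). With 3 arrays against 3, an exact permutation test of any pair of groups cannot go below p = 0.1, two-sided, and each of the 3 pairs of groups gave that value. Taken within control and dark-reared arrays of the same number, the differences were -0.85, -0.73 and -0.56 (mean -0.72, SE 0.08), all in the same direction, where an exact test over the 8 sign flips cannot go below p = 0.25, the value it gave. Both the dark-reared and control arrays come from slide 1, so the change after dark rearing lies within 1 slide, while the change after monocular deprivation lies between slides. Within slide 1 the change after dark rearing still lies between slide rows, which cannot be told apart from the groups.

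**Figure D3:**
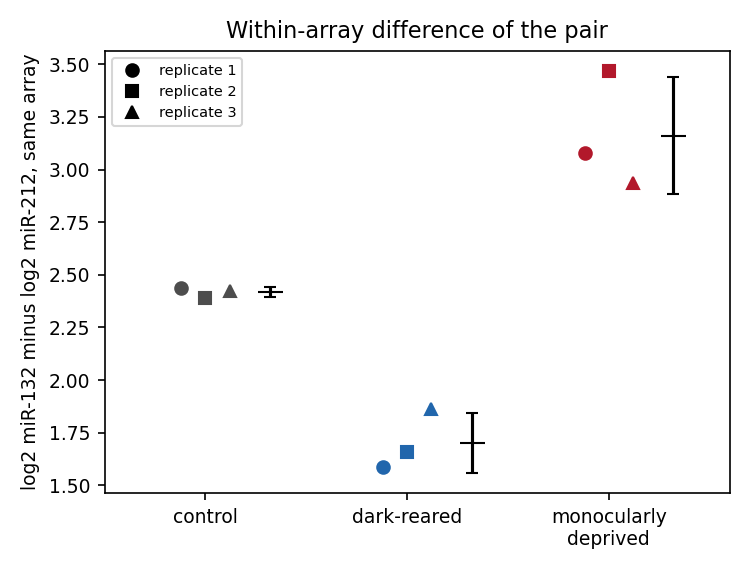
Log2 level of miR-132 minus log2 level of miR-212 on the same array, with 1 point per array (the shape gives the replicate number) and the mean ± SD of each group of 3 beside them. Control arrays lie between 2.39 and 2.44, dark-reared arrays below them (1.59 to 1.86) and monocularly deprived arrays above them (2.93 to 3.47). The vertical axis does not start at 0.

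The 2 probes of each miRNA were read separately to see whether they gave the same account. For miR-132 after dark rearing, the 16-base probe changed by -1.15 (SE 0.09) and the 15-base probe by -1.21 (SE 0.07) on the log2 scale. For miR-212 the 14-base probe changed by -0.46 (SE 0.11) and the 13-base probe by -0.45 (SE 0.11). The probes of a member thus differed by 0.07 or less, and for all 4 probes the dark-reared and control arrays did not overlap.

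After monocular deprivation the probes of a member were further apart. The 16-base probe of miR-132 changed by -0.45 (SE 0.22), with the arrays of the 2 groups overlapping, and the 15-base probe by -0.65 (SE 0.21), with no overlap. The 14-base probe of miR-212 changed by -1.17 (SE 0.07) and the 13-base probe by -1.44 (SE 0.09), both with no overlap. In each pair the shorter probe showed the larger drop. Against dark-reared cortex, the miR-132 probes stood 0.70 and 0.56 higher and the miR-212 probes differed by -0.71 and -0.99, longer probe first.

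The gap between the 2 probes of a miRNA was wider on the second slide. For miR-132 the longer probe exceeded the shorter by 1.04 ± 0.03 in control, 1.11 ± 0.04 in dark-reared and 1.25 ± 0.03 in monocularly deprived samples (log2). For miR-212 the gaps were 0.89 ± 0.01, 0.89 ± 0.06 and 1.16 ± 0.06. Over the 185 tested miRNAs with a pair of probes of different length, the change of the longer minus that of the shorter probe had a median of 0.04 after dark rearing and was above 0 for 145. After monocular deprivation the median was 0.12 and 167 were above 0, with values of 0.21 for miR-132 and 0.27 for miR-212.

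Probe length moved with the change of all probes in the same way. After monocular deprivation, the median log2 change of tested probes was -0.34 for the 17 probes of 13 bases and -0.30 for the 28 probes of 14 bases. It was -0.02 for the 29 probes of 15 bases and -0.0028 for the 44 probes of 16 bases, and reached 0.18 for the 50 probes of 20 bases. After dark rearing, the medians for probes of 13, 14, 15 and 16 bases were -0.02, -0.01, -0.06 and 0.00. The upper quartiles of the 13-base and 14-base probes were -0.21 and -0.07 after monocular deprivation, and against dark-reared cortex -0.06 and 0.09, so some of the 14-base probes were higher there. The part of probe length in the miR-212 change cannot be told apart from the slide.

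The members were therefore also compared after removal, on each array, of the median deviation of probes of the same or an adjacent length. The calculation was chosen after the data were seen. For the 14-base probe of miR-212 the pool also held 15-base probes. Their median change after monocular deprivation was -0.02, against -0.30 for 14 bases, so a difference between adjacent lengths was not removed. With these medians removed, miR-212 still fell after monocular deprivation (log2 change -1.03, limma adjusted p = 1.40e-05) and miR-132 as well (-0.50, adjusted p = 0.0255). The rise of the within-array difference after monocular deprivation was then 0.53 in place of 0.74, and between the deprivations 1.27 in place of 1.46, while the change after dark rearing was -0.74. The miR-212 change after dark rearing, -0.44 here, passed the threshold in this setting (adjusted p = 0.0277), as it did with the scanner software's total gene signal (-0.56, adjusted p = 0.0449).

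**Figure D4:**
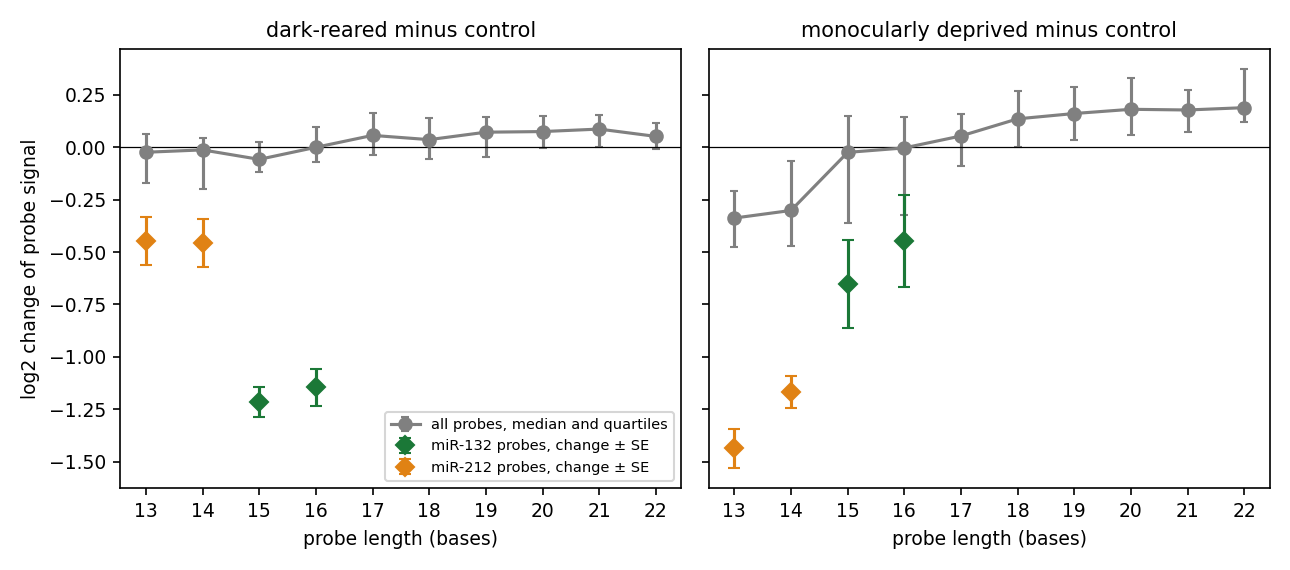
Log2 change of probe signal against probe length in bases, after dark rearing (left) and after monocular deprivation (right), both relative to control. Grey points and bars are the median and quartiles over all tested probes of that length, and diamonds with bars are single probes of miR-132 and miR-212 with the change ± SE. Medians of 13-base and 14-base probes stand near 0 on the left and at -0.34 and -0.30 on the right, and each miR-212 diamond lies below the median of its length.

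The 6 member comparisons differed in how many of the alternatives kept their call. Among the 24, the deposited series matrix held the same intensities as those used and so could not change a call. No alternative separates the slide from the group. The fall of miR-212 after monocular deprivation passed the test under all 24 alternatives (log2 change -1.49 to -0.70, adjusted p up to 0.0134). Its lower level in monocularly deprived than in dark-reared cortex passed under 21 of 24. For miR-132, the count was 14 of 24 for dark rearing, 17 of 24 for the comparison between deprivations and 8 of 24 for monocular deprivation against control. The 1 change of sign among these comparisons was that of miR-132 after monocular deprivation with scaling on all probes.

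**Figure D5:**
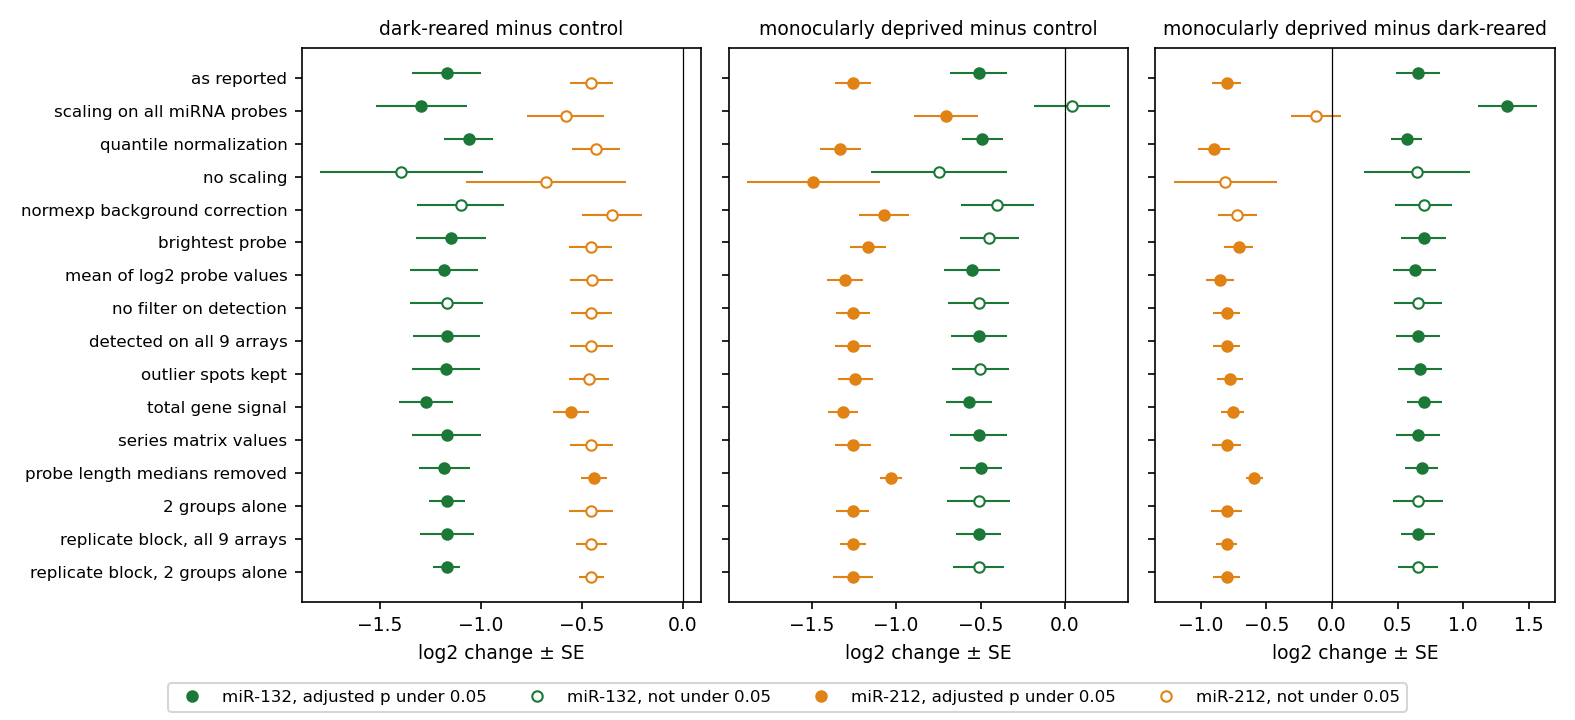
Log2 change ± SE of miR-132 and miR-212 in the 3 comparisons as reported (top) and under 15 other settings of scaling, background correction, probe summary, filter and model, leaving out no array. Filled points had an adjusted p under 0.05. The miR-212 point is filled in each row of the middle panel, while the miR-132 point there turns open in 8 of the other settings and lies at 0.040 with scaling on all miRNA probes.

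The miRNAs whose levels over the 9 arrays were most like those of each member were different ones. For miR-132 they were miR-135b (r = 0.86, Spearman coefficient 0.70), miR-674 (r = 0.78, Spearman coefficient 0.83), miR-33 (r = 0.76, Spearman coefficient 0.62), miR-221 (r = 0.75, Spearman coefficient 0.67) and miR-370 (r = 0.74, Spearman coefficient 0.62). For miR-212 they were miR-9 (r = 0.98, Spearman coefficient 0.93), miR-222 (r = 0.97, Spearman coefficient 0.93), miR-1895 (r = 0.96, Spearman coefficient 0.88), miR-1897-5p (r = 0.96, Spearman coefficient 0.90) and miR-714 (r = 0.96, Spearman coefficient 0.93). Between miR-132 and miR-212 themselves r was 0.31 and the Spearman coefficient 0.53, which made miR-212 the 55th most like miR-132 and miR-132 the 104th most like miR-212. These values are descriptions over 9 arrays that share their groups, slides and scaling, and several moved with the processing. With scaling on all probes the r of miR-9 with miR-212 was 0.38, with outlier spots kept that of miR-33 with miR-132 was 0.07, and with quantile normalization that of miR-221 with miR-132 was 0.45.

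The levels behind this likeness show what it rests on. miR-135b, like miR-132, was lower in both deprived groups, at -1.36 in control, -1.95 in dark-reared and -1.89 in monocularly deprived cortex, and passed the test after monocular deprivation (adjusted p = 0.0301) but not after dark rearing (adjusted p = 0.205). miR-9, which is abundant in brain and acts in neural progenitors and neurons, was at 3.28, 3.16 and 2.78, the same order of groups as miR-212. All 5 miRNAs most like miR-212 fell after monocular deprivation, by 0.50 for miR-9 and by 2.11 for miR-714, whose monocularly deprived value is the floor of the scale. All 5 lost their call under normexp, and miR-9, miR-222 and miR-1895 also with scaling on all probes. The miR-135b call after monocular deprivation was lost under 11 of 24 alternatives, with a value of 0.028 under scaling on all probes.

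A list of 20 other miRNAs linked to neuronal activity or synapses, of which 18 were tested, put the pair in context. After dark rearing 0 of the 18 were called (limma, against 0.629% of all tested miRNAs, with 28 of these 318 having an unadjusted p under 0.05), and their median log2 change was 0.004, against 0.05 over all tested miRNAs. After monocular deprivation 3 of the 18 were called higher and 3 lower, beside 15.7% and 17.3% of all tested miRNAs, so the share of the list was close to the background. The median was -0.02 against 0.08. Lower were miR-9 (-0.50, adjusted p = 0.00223), miR-134 (-0.96, adjusted p = 0.00834), which restrains dendritic spine growth through Limk1, and miR-188-5p (-0.76, adjusted p = 0.0151). Higher were miR-218 (0.29, adjusted p = 0.0195), miR-219 (0.59, adjusted p = 0.0389), an oligodendrocyte miRNA, and miR-329 (0.34, adjusted p = 0.0496). Each of these calls was lost under some of the 24 alternatives. miR-134 lost its call under 6 (it stood at -0.085 with quantile normalization and at -0.62 after removal of probe-length medians) and miR-188-5p under 7 (-0.12 and -0.41). miR-9 lost it under 3 (0.049 with scaling on all probes), miR-218 under 10, miR-219 under 12 and miR-329 under 15. Between the deprivations 2 were called higher (miR-219, 0.59, and miR-329, 0.35) and 2 lower (miR-134, -1.14, and miR-9, -0.38) in monocularly deprived cortex, beside 9.75% and 18.9% of all tested miRNAs, and the share of the 18 that was called lay below the background of 28.6%. The median was 0.06 against 0.03, and miR-134 stood at -0.070 with quantile normalization and miR-9 at 0.30 with scaling on all probes.

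Markers of other cells were summed on the linear scale to give the makeup of the samples beside these results, and in whole tissue fewer cells of a type cannot be told apart from less RNA per cell. The 8 neuronal markers summed to 79.8 to 80.6 times the array's 75th percentile in control, 77.3 to 78.3 in dark-reared and 66.8 to 93.0 in monocularly deprived samples. Every dark-reared sample thus lay below every control sample, although 0 of the 8 markers were called after dark rearing. The median log2 change of the 8 was then 0.01, against 0.05 over all tested miRNAs, so the lower sum is not a fall of each marker. The choroid plexus and epithelial markers (4 of 7 tested, with miR-200c, miR-141 and miR-211 too dim) summed to 0.703 to 0.778, 0.932 to 1.23 and 0.851 to 0.918 in the same order, and so were higher in every deprived than in every control sample. The 4 vascular markers summed to 1.77 to 1.97, 1.60 to 1.74 and 1.94 to 2.11, with every dark-reared sample below every control sample. After monocular deprivation 2 of the 4 were called lower and 0 higher (limma), beside 17.3% and 15.7% of all tested miRNAs. Their median log2 change was -0.26, against 0.08 over all tested miRNAs, so the sum does not give the direction of each marker. The 3 erythrocyte markers summed to 1.33 to 2.56, 1.44 to 2.62 and 2.69 to 3.00, so that each monocularly deprived sample exceeded all others. Of these 3 markers, 0 were called in any comparison. Sums of the oligodendrocyte markers (3 of 3 tested, 2.50 to 3.70 over all arrays), the microglia and leukocyte markers (5 of 6, 0.391 to 0.464), the astrocyte markers (3 of 4, 21.0 to 24.7) and the muscle markers (2 of 3, 0.0643 to 0.0851) overlapped between control and both deprived groups. The part of these sums in the changes of miR-132 and miR-212 was not tested.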

How the data were processed

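Per the labels, 100 ng of total RNA per sample was labelled with Cy3 and hybridised at 64 °C, 1 sample per array. The deposited files hold fluorescence intensity for 13715 spots an array, 13000 of them for 1857 miRNA probes. Background subtraction and removal of a spatial trend were done in Agilent Feature Extraction 10.1.1.1, per the file headers, and nothing scaled the arrays to each other. The deposited series matrix holds the same intensity values (100% of spots equal within a relative difference of 1e-05).

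Spots marked as outliers (367 to 638 per array) were dropped. The rest were averaged per probe and the probes per miRNA, both as linear processed intensity. Each array was scaled by its own 75th percentile (401 to 1022 units), computed from the 433 probes that stood well above background on every one of the 9 arrays. A floor was set at the 1st percentile of detected miRNAs (0.00422, log2 -7.89), followed by log2. Detection on all 3 arrays of at least 1 group was required for testing (318 of 611 mouse names). All 9 arrays entered a single limma 3.58.1 fit (R 4.3.3) of 3 group means (6 residual and 2.21 prior degrees of freedom), Benjamini-Hochberg adjusted within each comparison, with a call at adjusted p under 0.05. The procedure was also run on simulated data with independent noise. These data held no effect of slide, probe length or pairing, so the run cannot speak to those. Precision is limited by having 3 arrays in a group.

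The text names the pair, their probes, the 5 miRNAs of highest Pearson r to each, miR-212 and miR-132 against each other, and up to 4 listed activity miRNAs of smallest p per comparison; miR-200b, and miR-219 and miR-329 where outside that rule, are named because counts are small. Members and lists were chosen with earlier results of these data known. Deviations from the group mean correlated across miRNAs between control and dark-reared arrays of the same number (r = 0.887, 0.324 and 0.815). Such arrays also share a slide column, and these numbers were taken to pair them, although for control replicate 2 the highest correlation was with dark-reared replicate 3 (r = 0.615). Monocularly deprived arrays were not paired with control by number (r = -0.359, -0.259 and 0.213). Alternatives changed the scaling, background correction (normexp, offset 50), probe summary, filter, outlier spots, source of values, model and set of arrays.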

Additional observations from a re-analysis of the deposited data

How the results depend on the processing

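For miR-132 after dark rearing the call was lost with no scaling (-1.39), normexp (-1.10) and no filter (-1.17), and it ranged from -1.23 to -1.11 with 1 array left out. miR-212 after dark rearing passed with total gene signal (-0.56) and after removal of probe-length medians (-0.44, added after the data were seen). For miR-132 after monocular deprivation the change was 0.040 with scaling on all probes, and the call was lost with no scaling (-0.74), normexp (-0.40), the brightest probe (-0.45), outlier spots kept (-0.50), and no filter, the 2 groups alone or a replicate block on 2 groups alone (-0.51 each); it ranged from -0.71 to -0.35 with 1 array left out. Between deprivations, miR-132 lost its call with no scaling (0.65), normexp (0.70), and no filter, 2 groups alone or a replicate block on 2 groups alone (0.66 each), and ranged from 0.46 to 0.82 with 1 array left out; miR-212 lost its call with scaling on all probes (-0.12), no scaling (-0.81) and normexp (-0.72). Apart from these and the counts below, the replicate block changed no call of the pair, and within pairs, added after the data were seen, the within-array difference after dark rearing was -0.72 as reported. Removing probe-length medians moved the within-array difference to 0.53 after monocular deprivation and to 1.27 between deprivations.

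The number of miRNAs called after dark rearing, 2 as reported, was 1 with all-probe scaling, quantile normalization, the mean of log2 probe values, outlier spots kept and either replicate block, 0 with no scaling or normexp (3 and 2 at an unadjusted p under 0.05 in limma), 4 with detection required on all 9 arrays, and 0 to 3 with 1 array left out (20 to 40 unadjusted). After monocular deprivation, 105 as reported, it was 234 with all-probe scaling (201 higher, 33 lower), 36 with no scaling (0 higher), 2 with normexp, 62 with the replicate block on 2 groups and 66 to 104 with 1 array left out; quantile normalization gave 62 higher and 37 lower. Between deprivations, 91 as reported, the counts were 247 (35 of them lower), 37 (0 higher), 1, 35 and 49 to 91, with 65 higher and 35 lower under quantile normalization. miR-9 turned to 0.049 and 0.30 under all-probe scaling, after monocular deprivation and between deprivations, miR-135b turned to 0.028 after monocular deprivation, and under normexp the r of miR-132 with miR-674, miR-33 and miR-370 was -0.16, -0.12 and -0.045. The cause was not tested. Where leaving out an array left a group of 3 with 2, the spread was shared over all groups.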
